A study of Talinum fruticosum with 24 samples.

Results

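Gene expression at midday was compared between leaves of Talinum triangulare in drought, which run crassulacean acid metabolism (CAM), and leaves of plants that had been re-watered and returned to C3 photosynthesis (reC3). Per the labels, plants grew well watered for 28 d and were then kept without water for 12 d. CAM leaves were taken at the end of that drought, and reC3 leaves after a further 2 d of re-watering, so the reC3 plants had passed through the same drought. Both groups were harvested in the middle of the day (MD), at zeitgeber time 6 h, and each held 3 biological replicates, chosen by their labels as 6 of the 24 libraries of the series. The other 18 libraries hold both groups at 3 further times, named ED for the day's end (12 h), MN for midnight (18 h) and EN for the night's end (24 h). The labels list the species as Talinum fruticosum, the tissue is mature leaf, and the RNA is polyadenylated RNA sequenced with a kit that does not mark strand. No group had been spared drought, so a rise in CAM leaves and a fall on re-watering cannot be told apart, and neither can photosynthetic mode and water supply. Libraries were made from leaves, not from sorted cells, so fewer cells of a type and less RNA per cell cannot be told apart.

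In CAM, stomata open at night, and phosphoenolpyruvate (PEP) carboxylase joins bicarbonate to PEP made from starch by glycolysis. The product is reduced to malate and stored in the vacuole as malic acid. By day, behind closed stomata, malic enzyme releases CO2 from malate for the Calvin-Benson cycle, and the pyruvate that remains is turned back into PEP and then into starch. Midday is therefore the time of malate release and starch refilling in CAM leaves, and of open-stomata photosynthesis in C3 leaves.

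The MD libraries held 5716330 to 8145122 counts on 14733 to 15322 Arabidopsis gene identifiers. One reC3 library stood apart from its partners in the share of its top genes and in its counts. In reC3 replicate 3 the share of counts on its top 10 genes was 12.6%, against 23.5% and 20.3% in reC3 replicates 1 and 2 and 14.2% to 14.8% in the CAM libraries. Its counts differed from those of reC3 replicates 1 and 2 by a chi-square of 89.5 and 50.2 per degree of freedom. Between reC3 replicates 1 and 2 that value was 15.2. Between CAM replicates 1 and 3 it was 3.91, and CAM replicate 2 differed from them by 10.4 and 16.6. The mean correlation with partners was 0.962 in reC3 replicate 3, close to the 0.964 of reC3 replicate 1, against 0.976 in reC3 replicate 2. Results are also given without reC3 replicate 3. Other libraries are named where leaving them out ended the call of a named gene or moved a list count further. Not every small change of a list count is given. Markers of mesophyll, the photosynthetic tissue of the leaf, were abundant in all 6 libraries, with a summed 66292 to 70077 CPM in the CAM libraries and 53724 to 150289 CPM in the reC3 libraries over 5 genes. Values are given in CPM (counts scaled to a common library size) and differences as log2 fold changes, positive where higher in CAM, and a gene is said to rise or fall where its edgeR quasi-likelihood test gave an adjusted p under 0.05. Of 14065 genes tested, 6190 (44%) differed at midday, 3189 higher in CAM (22.7%) and 3001 lower (21.3%). The median over all genes was 0.080. The 3 CAM values and the 3 reC3 values did not overlap in 7809 genes (55.5%). With at least a 2-fold change, 1210 genes (8.6%) were higher and 1979 (14.1%) lower. Without reC3 replicate 3, 2790 were higher and 2744 lower, with the median again 0.080. Gene lists by pathway or cell type held 680 entries. The table has 526 of them, and 504 passed the filter on low counts. The lists were chosen with earlier results of these data known. A count of called members therefore describes those members and is not a test of the pathway. Reads of Talinum were assigned to Arabidopsis identifiers, so levels of close paralogs may share reads and are uncertain as single genes.

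PEP carboxylase, which makes the first product of nocturnal CO2 uptake, and the kinase that phosphorylates it and lowers its inhibition by malate were far more abundant in CAM leaves at midday. PPC1 (AT1G53310) had 8459, 6337 and 7832 CPM in CAM leaves, against 593, 439 and 407 CPM in reC3 leaves. PPC2 (AT2G42600), the second PEP carboxylase, had 6085, 4562 and 5683 CPM in CAM leaves, against 368, 278 and 236 CPM in reC3 leaves. The CAM libraries lay above every reC3 library by more than 10-fold in both. The fold changes were 3.98 ± 0.39 (SE, edgeR adjusted p = 5.06e-08) for PPC1 and 4.21 ± 0.39 (edgeR adjusted p = 2.31e-08) for PPC2, close paralogs whose reads may be shared. The kinase PPCK1 (AT1G08650) had 162, 121 and 128 CPM in CAM leaves, against 32.3, 24.4 and 14.5 CPM in reC3 leaves (log2 fold change 2.53 ± 0.35 SE, edgeR adjusted p = 5.44e-06). PPCK2 (AT3G04530) had 42.1, 30.1 and 29.8 CPM in CAM leaves, against 7.98, 3.44 and 4.47 CPM in reC3 leaves (log2 fold change 2.70 ± 0.31 SE, edgeR adjusted p = 5.42e-07). Neither kinase overlapped between the groups. Of 5 members tested, 4 rose and 0 fell, with a median log2 fold change of 2.70 against 0.080 over all genes, and the count was again 4 without reC3 replicate 3. The remaining member, PPC4 (AT1G68750), named after its value was seen, the bacterial-type carboxylase, was below 4 CPM in every library and did not pass the test (-0.89). Summed over the list, levels were 11050.3 to 14749.5 CPM in the CAM libraries and 664 to 1004 CPM in the reC3 libraries.

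Over the day the difference of PPCK1 changed sign at the end of the light period. PPCK1 was lower in CAM at ED (log2 fold change -1.86) and higher at MN (2.79) and EN (2.57), against 2.53 at MD. The midday difference of PPCK1 exceeded the mean of the other times by 1.37 ± 0.38 on the log2 scale (edgeR adjusted p = 0.0138) and that of PPCK2 by 1.71 ± 0.35 (edgeR adjusted p = 0.00145). Against MN alone neither kinase passed the test, with -0.26 ± 0.46 for PPCK1 and 0.19 ± 0.40 for PPCK2 (edgeR adjusted p = 0.731 and 0.781). The carboxylase PPC1 had log2 fold changes of 4.14 at ED, 4.47 at MN and 0.69 at EN, beside 3.98 at MD. PPC2 had 4.42 at ED, 4.66 at MN and 0.76 at EN, and its midday difference did not pass the test against the mean of the other times (0.93 ± 0.39, edgeR adjusted p = 0.0923). Libraries of MD and MN had been made for a previous series, those of ED and EN for the present one, so against ED and EN the time of day and the set of libraries cannot be told apart.

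**Figure D1:**
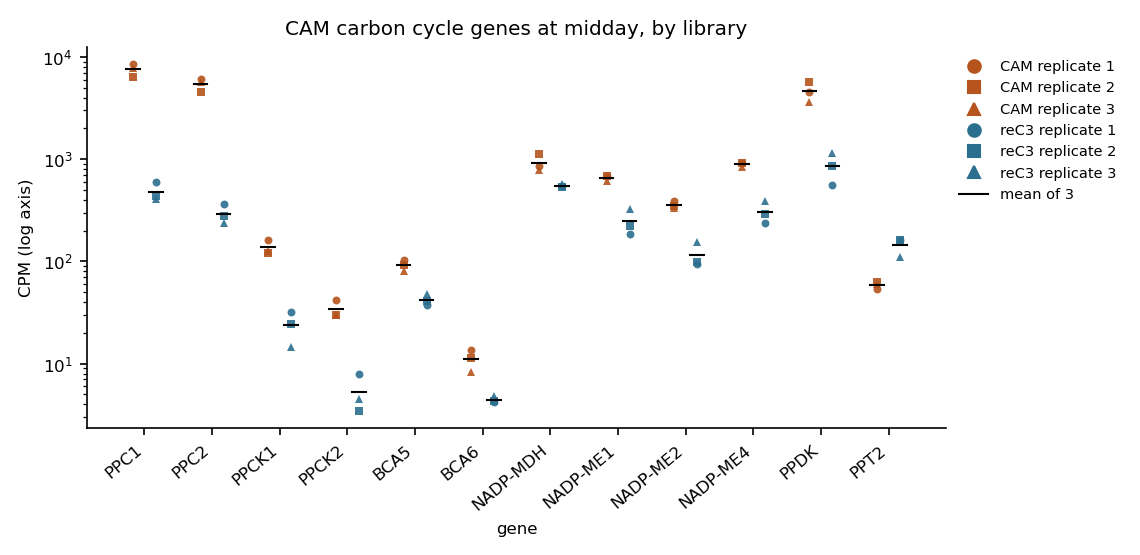
Levels of 12 CAM carbon cycle genes at midday in CPM (log axis), with 1 point per library, CAM replicates left of reC3 replicates for each gene, and a line at the mean of 3. In 11 genes every CAM library lies above every reC3 library, and in PPT2 every CAM library lies below.

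Of the daytime arm of the cycle, 4 of 12 members were higher and 2 lower. The 3 NADP-malic enzymes, which release CO2 from malate, rose together, and so did pyruvate orthophosphate dikinase, PPDK (AT4G15530), which regenerates PEP from pyruvate. PPDK had 4536, 5692 and 3624 CPM in CAM leaves, against 563, 851 and 1159.8 CPM in reC3 leaves (log2 fold change 2.43 ± 0.57 SE, edgeR adjusted p = 0.00166). Its lowest CAM library lay above 3-fold the highest reC3 library. NADP-ME2 (AT5G11670) had 391, 346 and 335 CPM in CAM leaves, against 95.1, 98.7 and 155 CPM in reC3 leaves (log2 fold change 1.62 ± 0.21 SE, edgeR adjusted p = 2.89e-06). NADP-ME4 (AT1G79750), the plastid enzyme in Arabidopsis, averaged 887 ± 46.1 CPM in the CAM libraries and 304 ± 75.4 CPM in the reC3 libraries (SD, n = 3 each), a difference of 1.54 ± 0.21, and NADP-ME1 (AT2G19900) averaged 659 ± 41.6 CPM in the CAM libraries and 246 ± 73.4 CPM in the reC3 libraries, a difference of 1.42 ± 0.21. In all 3 the lowest CAM library was above the highest reC3 library. PPT2 (AT3G01550), a PEP and phosphate exchanger of the plastid envelope, fell (-1.29, 58.8 CPM in CAM against 144 CPM in reC3), and its partner PPT1 (AT5G33320) did not pass the test (-0.43). Of the mitochondrial malic enzymes, NAD-ME1 (AT2G13560) was at 196 CPM in CAM against 173 CPM in reC3 (0.18, not called). NAD-ME2 (AT4G00570) fell by a small amount (-0.32) and was not called without CAM replicate 1, CAM replicate 2, reC3 replicate 2 or reC3 replicate 3 (-0.27, -0.27, -0.25 and -0.34, edgeR adjusted p = 0.155, 0.149, 0.18 and 0.0652). BASS2 (AT2G26900), the sodium-linked pyruvate carrier, overlapped between groups (0.15, not called). The plot of CAM carbon cycle genes by library shows these levels. The median over the 12 members was 0.16. With reC3 replicate 3 left out, 4 rose and 1 fell, and the lower count was also 1 without CAM replicate 1, CAM replicate 2 or reC3 replicate 2.

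The malic enzymes rose more at midday than at the other times. The midday difference exceeded the mean of the other times by 1.16 ± 0.24 for NADP-ME2, 1.005 ± 0.24 for NADP-ME4 and 1.04 ± 0.24 for NADP-ME1 (edgeR adjusted p = 0.00161, 0.00475 and 0.00375). NADP-ME2 had log2 fold changes of 0.53 at ED, 0.41 at MN and 0.43 at EN, against 1.62 at MD. For PPDK this difference did not pass the test (1.15 ± 0.63, edgeR adjusted p = 0.198). In the list, 4 of 12 members had a larger midday difference than the mean of the other times and 0 a smaller one, where 13.2% and 9.29% of all genes did.

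Malate dehydrogenases, which interconvert oxaloacetate and malate, and carbonic anhydrases, which supply bicarbonate, gave smaller differences. BCA5 (AT4G33580), a carbonic anhydrase, had 102.2, 92.4 and 79.8 CPM in CAM leaves, against 37.7, 41.3 and 47.6 CPM in reC3 leaves (log2 fold change 1.11 ± 0.24 SE, edgeR adjusted p = 0.000806). BCA6 (AT1G58180) had 13.5, 11.4 and 8.28 CPM in CAM leaves, against 4.17, 4.34 and 4.85 CPM in reC3 leaves (1.297). The plastid NADP-MDH (AT5G58330) rose (924 CPM in CAM against 552 CPM in reC3, 0.75), without overlap in any of these 3 genes. The plastid NAD-dependent enzyme plMDH (AT3G47520) was called at 0.83, and was not called without reC3 replicate 3 (0.62, edgeR adjusted p = 0.0919). The cytosolic cMDH1 (AT1G04410) was called at 0.41 and was not called without CAM replicate 1, CAM replicate 2, CAM replicate 3, reC3 replicate 2 or reC3 replicate 3 (0.43, 0.42, 0.37, 0.38 and 0.23, edgeR adjusted p = 0.0673, 0.0721, 0.112, 0.113 and 0.24) and at 0.64 without reC3 replicate 1. The carbonic anhydrase BCA1 (AT3G01500) had 15005, 16129.9 and 14193 CPM in CAM leaves, against 33861, 25526 and 8037 CPM in reC3 leaves. Its reC3 libraries spanned the CAM ones, replicates 1 and 2 above and replicate 3 below, and the difference of -0.57 did not pass the test. BCA3 (AT1G23730) showed the same order of libraries (-0.64), and mMDH1 (AT1G53240), the mitochondrial enzyme, did not pass (0.37). Of 10 members 5 rose and 0 fell, median 0.39, and 3 rose without reC3 replicate 3 (median 0.22). Their summed level was 20378 to 24029 CPM in the CAM libraries and 12240.4 to 42973 CPM in the reC3 libraries.

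Transport of malate into the vacuole is driven by the proton pumps of its membrane. TDT (AT5G47560), the tonoplast dicarboxylate transporter, had 96 counts in the CAM libraries and 0 in the reC3 libraries, at least 36.5-fold higher in CAM against a floor of 3 counts over the group. By library it had 9.55, 1.41 and 6.29 CPM in CAM leaves, against 0, 0 and 0 CPM in reC3 leaves, so CAM replicate 2 was well below the other CAM libraries. Of the vacuolar proton ATPase, VHA-B3 (AT1G20260) had 798, 807 and 752 CPM in CAM leaves, against 447, 518 and 511 CPM in reC3 leaves (log2 fold change 0.68 ± 0.14 SE, edgeR adjusted p = 0.000371), and VHA-a2 (AT2G21410) rose as well (0.59). VHA-a1 (AT2G28520) fell (-0.36) and was not called without CAM replicate 2, CAM replicate 3 or reC3 replicate 3 (-0.37, -0.33 and -0.16, edgeR adjusted p = 0.0537, 0.0838 and 0.289). VHA-F (AT4G02620) fell (-0.52) and was not called without CAM replicate 1, CAM replicate 2, CAM replicate 3, reC3 replicate 1 or reC3 replicate 2 (-0.47, -0.53, -0.56, -0.51 and -0.47, edgeR adjusted p = 0.118, 0.0762, 0.0599, 0.0702 and 0.106). VHA-E1 (AT4G11150) did not pass the test (-0.18). AVP1 (AT1G15690), the pyrophosphate-driven pump of the same membrane, fell, with 404, 512 and 403 CPM in CAM leaves, against 1751, 1321 and 822 CPM in reC3 leaves (log2 fold change -1.56 ± 0.32 SE, edgeR adjusted p = 0.000384). No CAM library reached the lowest reC3 library of AVP1. Of 15 members 3 rose and 3 fell (20% each), near the 22.7% and 21.3% of all genes, with a median of 0.077. With any 1 midday library left out at most 2 fell, and 1 fell without CAM replicate 2 or CAM replicate 3.

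Enzymes of the lower part of cytosolic glycolysis, the path from triose phosphate to PEP, were higher in CAM leaves. The phosphoglycerate mutase iPGAM1 (AT1G09780) had 757, 779 and 769 CPM in CAM leaves, against 221, 242 and 221 CPM in reC3 leaves (log2 fold change 1.75 ± 0.19 SE, edgeR adjusted p = 2.14e-07), and the 3 libraries of each group were tightly grouped. Its paralog iPGAM2 (AT3G08590) rose by 1.90 ± 0.22 (697 CPM in CAM against 187 CPM in reC3). Glyceraldehyde 3-phosphate dehydrogenase, GAPC1 (AT3G04120), had 3732, 4296 and 4158 CPM in CAM leaves, against 2181, 1963 and 1502 CPM in reC3 leaves (log2 fold change 1.11 ± 0.20 SE, edgeR adjusted p = 8.93e-05), and GAPC2 (AT1G13440), a near copy, rose by the same amount (1.11). Enolase, LOS2 (AT2G36530), the step that makes PEP, rose (2592 CPM in CAM against 1475 CPM in reC3, 0.81). Further up the path, FBA6 (AT2G36460) aldolase (0.94), the phosphoglucose isomerase cPGI (AT5G42740, 0.76) and PFP-BETA1 (AT1G12000), a subunit of the pyrophosphate-dependent phosphofructokinase (0.87), rose without overlap. The pyruvate kinase AT2G36580, which uses PEP, fell (-0.69, 259.6 CPM in CAM against 418 CPM in reC3). PGK3 (AT1G79550), the phosphoglycerate kinase of the cytosol, did not pass (-0.48) and was called without reC3 replicate 3 (-0.76, edgeR adjusted p = 0.0382). Of 18 members 8 rose and 1 fell, median 0.45, and 8 rose and 2 fell without reC3 replicate 3.

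For part of the path the rise was larger at midday than at the other times. The midday difference of GAPC1 exceeded the mean of the others by 1.89 ± 0.23 (edgeR adjusted p = 8.32e-06), with 0.11 at ED, -0.46 at MN and -1.98 at EN. That of iPGAM1 exceeded it by 1.36 ± 0.21 (edgeR adjusted p = 0.00013). Against MN alone, from the same set of libraries, the excess was 1.57 ± 0.28 for GAPC1 and 1.24 ± 0.26 for iPGAM1 (edgeR adjusted p = 0.000344 and 0.00187). In the list, 6 of 18 members had a larger midday difference than the mean of the other times, and 2 a smaller one.

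Starch is the carbon store that feeds PEP at night and is rebuilt by day. Starch synthase SS1 (AT5G24300) had 258, 297 and 265 CPM in CAM leaves, against 9.61, 13.6 and 30.7 CPM in reC3 leaves (log2 fold change 3.903 ± 0.59 SE, edgeR adjusted p = 2.70e-05). Each CAM library exceeded each reC3 library by more than 8-fold, and the difference was 4.54 without reC3 replicate 3. The large subunits of ADP-glucose pyrophosphorylase, the enzyme that makes the glucose donor for starch, rose. APL2 (AT1G27680) had 2008, 2536 and 1800.2 CPM in CAM leaves, against 401, 776 and 1029 CPM in reC3 leaves (log2 fold change 1.52 ± 0.25 SE, edgeR adjusted p = 4.53e-05). APL4 (AT2G21590) averaged 4330.2 ± 869 CPM in the CAM libraries and 1190.2 ± 573 CPM in the reC3 libraries (1.86), and APL1 (AT5G19220) rose by 0.82. The small subunit APS1 (AT5G48300) rose as well (0.63). The branching enzymes SBE2.1 (AT2G36390, 0.98) and SBE2.2 (AT5G03650, 0.83), the starch synthase SS4 (AT4G18240, 0.60) and the isoamylase ISA1 (AT2G39930), which trims branches of the growing granule (75.4 CPM in CAM against 32.5 CPM in reC3, 1.21), completed a set of rises without overlap. In reC3 leaves replicate 1 was the lowest and replicate 3 the highest for SS1, APL2 and APL4.

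Other members went the other way or varied with single libraries. The plastid phosphoglucose isomerase PGI1 (AT4G24620) fell (125 CPM in CAM against 352 CPM in reC3, -1.49 ± 0.24), and the phosphoglucomutase PGM1 (AT5G51820) fell (-0.71), with 1 CAM library above the lowest reC3 library. SS2 (AT3G01180) fell by a small amount (-0.57) and was not called without CAM replicate 1, CAM replicate 3, reC3 replicate 2 or reC3 replicate 3 (-0.50, -0.52, -0.50 and -0.52, edgeR adjusted p = 0.0863, 0.0768, 0.0833 and 0.0622). SS3 (AT1G11720, -0.44) and the granule-bound GBSS1 (AT1G32900, -0.17) did not pass the test. The glucose 6-phosphate carrier GPT1 (AT5G54800) had 1169.7, 1302 and 1269 CPM in CAM leaves, against 70.6, 515 and 944 CPM in reC3 leaves and was called at 1.29. It was not called without CAM replicate 1, CAM replicate 2, CAM replicate 3 or reC3 replicate 2 (1.33, 1.26, 1.28 and 1.295, edgeR adjusted p = 0.0507, 0.0636, 0.0601 and 0.0719) and at 0.77 without reC3 replicate 1 and 2.09 without reC3 replicate 3. Its near copy GPT2 (AT1G61800) was called at 1.22 and was not called without CAM replicate 1, CAM replicate 2, CAM replicate 3 or reC3 replicate 2 (1.27, 1.19, 1.21 and 1.22, edgeR adjusted p = 0.0726, 0.0908, 0.0862 and 0.1) and at 0.71 without reC3 replicate 1 and 2.03 without reC3 replicate 3. The wide spread of both in reC3 leaves, lowest in replicate 1, contrasts with the narrow one in CAM leaves. Of 17 members 11 rose and 3 fell, median 0.82, against 11 and 2 (median 0.63) without reC3 replicate 3. Without CAM replicate 1, 9 rose and 2 fell.

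At midday 11 of 17 starch synthesis members had a larger difference than the mean of the other times and 0 a smaller one, where 13.2% and 9.29% of all genes did. SS1 exceeded that mean by 2.998 ± 0.64 (edgeR adjusted p = 0.00238), APL2 by 2.21 ± 0.29 (edgeR adjusted p = 2.06e-05) and ISA1 by 1.28 ± 0.16 (edgeR adjusted p = 1.46e-05). APL2 had log2 fold changes of -1.27 at ED, -0.17 at MN and -0.62 at EN. Against MN alone 7 members had a larger difference and 1 a smaller one, beside 12.1% and 10.2% of all genes.

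Genes of starch breakdown also rose at midday. SEX1 (AT1G10760), the glucan water dikinase that phosphorylates starch so that it can be degraded, had 1231, 902 and 1247 CPM in CAM leaves, against 238, 297 and 298 CPM in reC3 leaves (log2 fold change 2.02 ± 0.23 SE, edgeR adjusted p = 4.97e-07), with every CAM library at least 3-fold above every reC3 library. LSF1 (AT3G01510), a phosphatase-like protein of the granule, had 13.3, 10.5 and 17.2 CPM in CAM leaves, against 0.907, 2.25 and 1.79 CPM in reC3 leaves (log2 fold change 3.004 ± 0.27 SE, edgeR adjusted p = 2.15e-08). The debranching enzyme LDA (AT5G04360) rose (202 CPM in CAM against 57.4 CPM in reC3, 1.82), as did ISA3 (AT4G09020, 0.99) and the glucan phosphatase LSF2 (AT3G10940, 1.02). The beta-amylases BAM1 (AT3G23920, 978 CPM in CAM against 333 CPM in reC3, 1.55), BAM4 (AT5G55700, 0.95) and BAM9 (AT5G18670, 56.4 CPM in CAM against 20.3 CPM in reC3, 1.47) rose without overlap, and BAM3 (AT4G17090) did not pass the test (0.70). The disproportionating enzymes DPE1 (AT5G64860, 1.14) and DPE2 (AT2G40840, 0.64), which act on the malto-oligosaccharides released, rose too.

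Calls for other members were less steady. The phosphatase SEX4 (AT3G52180) was called at 0.63 and was not called without CAM replicate 2, CAM replicate 3 or reC3 replicate 1 (0.64, 0.60 and 0.34, edgeR adjusted p = 0.0531, 0.0701 and 0.149). The maltose exporter MEX1 (AT5G17520) was called at 0.51 and was not called without CAM replicate 1, CAM replicate 2, CAM replicate 3, reC3 replicate 1 or reC3 replicate 3 (0.49, 0.52, 0.53, 0.44 and 0.53, edgeR adjusted p = 0.0799, 0.0636, 0.0592, 0.108 and 0.0556). The phosphoglucan dikinase PWD (AT5G26570) fell (-0.93) and was not called without CAM replicate 3 or reC3 replicate 3 (-0.84 and -0.71, edgeR adjusted p = 0.0508 and 0.0698). The phosphorylase PHS2 (AT3G46970) had 231, 238 and 225 CPM in CAM leaves, against 208, 591 and 910.03 CPM in reC3 leaves (log2 fold change -1.30, and -0.79 without reC3 replicate 3). Its reC3 libraries spread over 4-fold and its CAM libraries barely at all. PHS1 (AT3G29320, 0.31) and AMY3 (AT1G69830, 0.53) did not pass the test, and AMY3 was called without CAM replicate 2 (0.64, edgeR adjusted p = 0.0456). Of 21 members 12 rose and 2 fell, median 0.64. With reC3 replicate 3 left out, 11 rose and 1 fell, median 0.94, and without CAM replicate 3, 10 rose and 1 fell. The midday difference of SEX1 exceeded the mean of the other times by 1.44 ± 0.26 (edgeR adjusted p = 0.000531), and it was 1 of 10 such members of the list, against 1 in the other direction.

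Sucrose metabolism and sugar transport showed no common direction (median 0.044). Of 20 members 3 were higher (15%) and 4 lower (20%), beside 22.7% and 21.3% of all genes. The higher count was 1 without CAM replicate 2 or reC3 replicate 3, and the median was 0.19 without reC3 replicate 3. SWEET11 (AT3G48740), a sucrose exporter of leaf veins in Arabidopsis, had 268, 208 and 240.3 CPM in CAM leaves, against 46.6, 50.9 and 61.4 CPM in reC3 leaves (log2 fold change 2.17 ± 0.21 SE, edgeR adjusted p = 4.53e-08). The sucrose synthase SUS4 (AT3G43190), which cleaves sucrose, had 25.0, 26.2 and 30.5 CPM in CAM leaves, against 82.4, 82.8 and 231 CPM in reC3 leaves (log2 fold change -2.28 ± 0.44 SE, edgeR adjusted p = 0.000302), and a log2 fold change of -1.60 without reC3 replicate 3. Its reC3 replicate 3 stood well above replicates 1 and 2, and all 3 lay above the CAM libraries. At MN and EN SUS4 was higher in CAM (-0.15 at ED, 1.48 at MN and 3.29 at EN), and the midday difference lay -3.82 ± 0.51 from the mean of the other times (edgeR adjusted p = 3.50e-05). The vacuolar invertase VI2 (AT1G12240) fell (214 CPM in CAM against 392 CPM in reC3, -0.88), and the sucrose carrier SUT4 (AT1G09960), below 10 CPM, fell as well (-1.31).

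Genes that make or break down compatible solutes, which protect cells as water is lost, gave some of the largest rises. The myo-inositol oxygenases open the inositol ring to glucuronic acid. MIOX1 (AT1G14520) had 1558, 1103 and 1716 CPM in CAM leaves, against 5.44, 9.29 and 32.5 CPM in reC3 leaves (log2 fold change 6.51 ± 0.57 SE, edgeR adjusted p = 2.91e-08). MIOX2 (AT2G19800) had 558, 383 and 588 CPM in CAM leaves, against 0.726, 3.89 and 12.6 CPM in reC3 leaves (6.39 ± 0.58), and MIOX4 (AT4G26260) had 464, 325 and 479 CPM in CAM leaves, against 1.63, 3.59 and 13.0 CPM in reC3 leaves (6.05 ± 0.53). In each, reC3 replicate 3 was the highest of its group and still far below every CAM library. Without it the differences were 7.61, 7.71 and 7.29. These 3 genes are close paralogs and may share reads.

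P5CS1 (AT2G39800), the first enzyme of proline synthesis, had 2248, 2095 and 2069 CPM in CAM leaves, against 273, 229 and 193 CPM in reC3 leaves (log2 fold change 3.20 ± 0.27 SE, edgeR adjusted p = 6.94e-09), and the proline-degrading P5CDH (AT5G62530) rose too (315 CPM in CAM against 71.4 CPM in reC3, 2.14). P5CS1 had log2 fold changes of -0.65 at ED, 0.26 at MN and 2.304 at EN, and its midday difference exceeded the mean of the other times by 2.57 ± 0.29 (edgeR adjusted p = 5.39e-06). Of the raffinose path, the galactinol synthases GOLS1 (AT2G47180, 212 CPM in CAM against 50.5 CPM in reC3, 2.07) and GOLS3 (AT1G09350, 217 CPM in CAM against 59.0 CPM in reC3, 1.88) rose, and the raffinose synthase RS5 (AT5G40390) fell (-0.98). Members of the raffinose synthase and seed imbibition family rose. SIP1 (AT1G55740) had 849, 417 and 782 CPM in CAM leaves, against 11.97, 27.3 and 60.1 CPM in reC3 leaves (4.36 ± 0.43, and 5.11 without reC3 replicate 3), and SIP2 (AT3G57520) averaged 2305 ± 371 CPM in the CAM libraries and 336 ± 147 CPM in the reC3 libraries (2.78). DIN10 (AT5G20250), of the same family, was called at 1.05 and was not called without CAM replicate 3 or reC3 replicate 1 (1.02 and 0.66, edgeR adjusted p = 0.0524 and 0.0859). The trehalose phosphate synthase genes TPS7 (AT1G06410, 155 CPM in CAM against 72.2 CPM in reC3, 1.1003), TPS9 (AT1G23870, 1.48) and TPS10 (AT1G60140, 1.56) rose, TPS5 (AT4G17770) fell (-0.95, and -0.58 without reC3 replicate 3), and trehalase, TRE1 (AT4G24040), which breaks trehalose down, fell (38.5 CPM in CAM against 89.3 CPM in reC3, -1.21). Of 23 members 13 rose and 3 fell, median 1.1003, the same counts as without reC3 replicate 3 (median 1.35).

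Abscisic acid (ABA) is the hormone of water shortage. The epoxycarotenoid dioxygenases (NCED), which catalyse its committed step, rose. NCED3 (AT3G14440) had 63.2, 51.2 and 32.8 CPM in CAM leaves, against 8.16, 7.64 and 13.8 CPM in reC3 leaves (log2 fold change 2.296 ± 0.37 SE, edgeR adjusted p = 3.94e-05). NCED9 (AT1G78390, 26.7 CPM in CAM against 3.15 CPM in reC3, 3.04) and NCED5 (AT1G30100, 29.1 CPM in CAM against 6.10 CPM in reC3, 2.22) rose as well, and in all 3 CAM replicate 3 was the lowest of its group but above every reC3 library. The later steps ABA3 (AT1G16540, 0.87) and AAO3 (AT2G27150, 1.04) rose, and ABA1 (AT5G67030), zeaxanthin epoxidase, did not pass the test (-0.22). The ABA hydroxylase CYP707A2 (AT2G29090), which inactivates the hormone, had 2.34, 2.19 and 2.15 CPM in CAM leaves, against 26.3, 31.5 and 34.2 CPM in reC3 leaves (log2 fold change -3.78 ± 0.25 SE, edgeR adjusted p = 3.18e-10), and CYP707A4 (AT3G19270) fell as well (-2.08). Of 14 members 5 rose and 2 fell, median 0.37.

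In ABA signalling 3 receptors fell and 3 phosphatases rose. The receptors PYR1 (AT4G17870) and PYL4 (AT2G38310) fell, with PYR1 at 2.73, 4.54 and 2.98 CPM in CAM leaves, against 28.1, 46.4 and 30.5 CPM in reC3 leaves (log2 fold change -3.34 ± 0.26 SE, edgeR adjusted p = 2.94e-09). PYL4 was at 0.495 CPM in CAM against 10.5 CPM in reC3 (-4.33) and PYL2 (AT2G26040), named after its value was seen, at 0.569 CPM in CAM against 3.04 CPM in reC3 (-2.40). The clade A phosphatases, which act against ABA signalling and are themselves induced by ABA, rose. HAI1 (AT5G59220) had 105, 66.0 and 52.8 CPM in CAM leaves, against 5.26, 7.34 and 7.27 CPM in reC3 leaves (log2 fold change 3.48 ± 0.43 SE, edgeR adjusted p = 2.26e-06), HAI2 (AT1G07430) averaged 145 ± 44.2 CPM in the CAM libraries and 25.9 ± 3.18 CPM in the reC3 libraries (2.48) and PP2CA (AT3G11410) 222 ± 52.8 CPM in the CAM libraries and 71.2 ± 6.13 CPM in the reC3 libraries (1.64). CAM replicate 1 was the highest library of each of them. ABI1 (AT4G26080) did not pass the test (0.45, edgeR adjusted p = 0.0504). EDL3 (AT3G63060), an F-box protein of ABA responses, had 421 counts in CAM and 2 in reC3, higher by a ratio of 240.2 (95% counting interval 66.1 to 1989.6). The transcription factors ABF1 (AT1G49720, 0.98), ABF2 (AT1G45249, 1.14) and ABF3 (AT4G34000, 0.95), which bind ABA-responsive promoters, rose by about 2-fold without overlap, and the kinase OST1 (AT4G33950) did not pass (-0.18). Of 17 members 8 rose and 3 fell, median 0.95, the same counts as without reC3 replicate 3.

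Genes named for their response to dehydration rose in 9 of 11 tested cases and fell in 2 (median 2.19). Without CAM replicate 1, 1 fell. Of the list's 28 entries 18 are in the table and 11 passed the filter on low counts. A gene can pass that filter through 1 group alone, so the counts cover only members expressed in some group. The dehydrin COR47 (AT1G20440) had 65.3, 47.0 and 67.7 CPM in CAM leaves, against 3.45, 3.15 and 5.74 CPM in reC3 leaves (log2 fold change 3.84 ± 0.38 SE, edgeR adjusted p = 9.16e-08). The dehydrin XERO1 (AT3G50980) had 149 counts in CAM and 1 in reC3, higher by a ratio of 170.0 (95% counting interval 30.05 to 6759). The homeodomain factor ATHB7 (AT2G46680) had 199.7, 201 and 165 CPM in CAM leaves, against 8.71, 22.2 and 31.9 CPM in reC3 leaves (3.16 ± 0.48), and the caleosin RD20 (AT2G33380) was at 17.605 CPM in CAM against 3.79 CPM in reC3 (2.19). None of these overlapped between groups.

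Aquaporins, the water channels of cell and vacuole membranes, fell in 8 of 11 cases, and 0 rose (median -1.45; -1.76 with the same counts without reC3 replicate 3). PIP2;2 (AT2G37170), of the plasma membrane, had 59.3, 91.5 and 72.7 CPM in CAM leaves, against 732, 495 and 277 CPM in reC3 leaves (log2 fold change -2.75 ± 0.35 SE, edgeR adjusted p = 2.01e-06). The tonoplast channel TIP1;1 (AT2G36830) had 196, 216 and 270.3 CPM in CAM leaves, against 2333, 2054 and 813 CPM in reC3 leaves (-2.93 ± 0.50), and TIP4;1 (AT2G25810) was at 3.11 CPM in CAM against 22.9 CPM in reC3 (-2.87). PIP2;6 (AT2G39010) averaged 40.02 ± 5.16 CPM in the CAM libraries and 109.6 ± 48.4 CPM in the reC3 libraries (-1.45). In all 4 the CAM libraries lay below every reC3 library, and among the reC3 libraries replicate 3 was the lowest except for TIP4;1, where it was the highest. The 4 are members of families with close paralogs.

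For the light reactions, the counts moved with reC3 replicates 1 and 3. Photosystem subunits carry out the light-driven electron transport, and 10 of 21 fell while 1 rose (median -0.88), against 15 lower and 0 higher without reC3 replicate 3 (median -1.27) and 6 lower without reC3 replicate 1. PSAN (AT5G64040), a subunit of photosystem I, had 807, 1107 and 767 CPM in CAM leaves, against 6105, 4278 and 1641 CPM in reC3 leaves (log2 fold change -2.16 ± 0.41 SE, edgeR adjusted p = 0.000207). PSAF (AT1G31330) had 1314, 1458 and 1322 CPM in CAM leaves, against 5732, 5081 and 1951 CPM in reC3 leaves (-1.64 ± 0.36), and PSAK (AT1G30380) was at 1386 CPM in CAM against 3869 CPM in reC3 (-1.48) and PSBY (AT1G67740), of photosystem II, at 633 CPM in CAM against 1451 CPM in reC3 (-1.20). In each, reC3 replicate 3 was the closest to the CAM libraries without reaching them. The 1 member that rose, PETC (AT4G03280), named after its value was seen, is an iron-sulfur protein of electron transport (3166 CPM in CAM against 1862 CPM in reC3, 0.77, and not called without reC3 replicate 3 (0.54, edgeR adjusted p = 0.054)). Chlorophyll-binding antenna proteins fell in 1 of 14 cases, LHCB6 (AT1G15820), which had 599, 788 and 761 CPM in CAM leaves, against 5102, 4746 and 1731 CPM in reC3 leaves (log2 fold change -2.43 ± 0.70 SE, edgeR adjusted p = 0.00855). The count was 3 without reC3 replicate 3. The antenna list summed to 75426, 82153 and 82690 CPM in CAM replicates 1 to 3, against 176326, 143587 and 56860 CPM in reC3 replicates 1 to 3, so that reC3 replicates 1 and 2 lay above the CAM libraries and reC3 replicate 3 below them. The plot of summed levels by library sets this beside other lists.

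**Figure D2:**
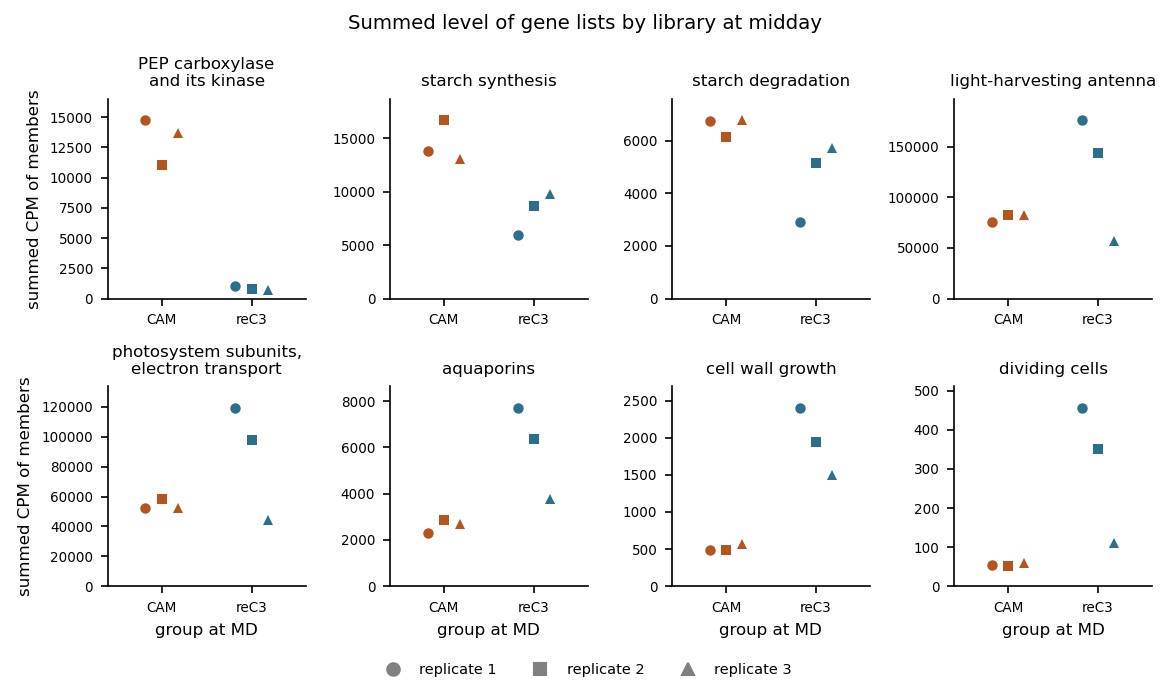
Summed CPM of the tested members of 8 gene lists at midday, with 1 point per library, CAM left of reC3 in each panel and replicate numbers as symbols. For the antenna and photosystem lists reC3 replicate 3 lies below the CAM libraries while reC3 replicates 1 and 2 lie above them, and for aquaporins, cell wall growth and dividing cells all CAM libraries lie below all reC3 libraries.

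Some photoprotective genes rose at the same time. ELIP1 (AT3G22840), an early light-induced protein that binds chlorophyll when light is in excess, had 4461, 5484 and 3857 CPM in CAM leaves, against 13.8, 20.8 and 56.1 CPM in reC3 leaves (log2 fold change 7.24 ± 0.97 SE, edgeR adjusted p = 7.13e-06). No reC3 library came within 60-fold of a CAM library, and the difference was 8.05 without reC3 replicate 3. The stress-enhanced protein SEP2 (AT2G21970) had 139.8, 149 and 131 CPM in CAM leaves, against 13.8, 22.3 and 32.0 CPM in reC3 leaves (log2 fold change 2.61 ± 0.30 SE, edgeR adjusted p = 5.68e-07). PGR5 (AT2G05620), needed for cyclic electron flow around photosystem I, had 2076, 2126 and 1701 CPM in CAM leaves, against 518, 663 and 487 CPM in reC3 leaves (log2 fold change 1.82 ± 0.22 SE, edgeR adjusted p = 1.16e-06). PGR5 had log2 fold changes of 1.39 at ED, -0.34 at MN and -1.54 at EN, and its midday difference exceeded the mean of the other times by 1.99 ± 0.26 (edgeR adjusted p = 2.06e-05). KEA3 (AT4G04850), a thylakoid antiporter, was called at 0.76 and was not called without CAM replicate 2 (0.47, edgeR adjusted p = 0.065). Of 13 members 5 rose and 0 fell, median 0.47. Without CAM replicate 2, 3 rose and 1 fell, and without reC3 replicate 3, 5 rose and 1 fell.

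In chlorophyll synthesis 1 of 17 members rose and 5 fell (median -0.28). The higher count was 3 without reC3 replicate 1, and the lower one 3 without CAM replicate 1, CAM replicate 3 or reC3 replicate 1. Without reC3 replicate 3, 1 rose and 7 fell (median -0.68). FLU (AT3G14110), the protein that represses the pathway in the dark, had 198, 181 and 201 CPM in CAM leaves, against 55.3, 47.3 and 27.2 CPM in reC3 leaves (log2 fold change 2.16 ± 0.38 SE, edgeR adjusted p = 0.000129). The magnesium chelatase cofactor GUN4 (AT3G59400) had 31.8, 58.1 and 32.3 CPM in CAM leaves, against 256, 179 and 66.5 CPM in reC3 leaves (-2.03 ± 0.46), and the chelatase subunit CHLH (AT5G13630) had 725, 1164 and 698 CPM in CAM leaves, against 3419.8, 2725 and 1603 CPM in reC3 leaves (-1.58 ± 0.40). CAO (AT1G44446), which makes chlorophyll b, was at 185 CPM in CAM against 375 CPM in reC3 (-1.02, and -0.62 without reC3 replicate 1), with reC3 replicate 3 inside the CAM range. The list summed to 7084 to 8707 CPM in the CAM libraries and 6110.2 to 19984 CPM in the reC3 libraries.

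The Calvin-Benson cycle, which fixes CO2 in both modes, held 3 higher and 4 lower members of 17 (median -0.33). Leaving out reC3 replicate 3, 3 rose and 6 fell (median -0.63), and 2 fell without CAM replicate 3, reC3 replicate 1 or reC3 replicate 2. Rubisco activase, RCA (AT2G39730), had 6143, 10311 and 5369 CPM in CAM leaves, against 24389.6, 15853 and 10210.4 CPM in reC3 leaves (log2 fold change -1.21 ± 0.31 SE, edgeR adjusted p = 0.00311). CAM replicate 2 lay just above reC3 replicate 3, and the other CAM libraries lay below all reC3 libraries. RCA was higher in CAM at ED (2.09 at ED, 0.12 at MN and -0.30 at EN), and the midday difference lay -1.84 ± 0.36 from the mean of the other times (edgeR adjusted p = 0.000903). Phosphoribulokinase, PRK (AT1G32060), which makes the CO2 acceptor, fell (1408 CPM in CAM against 2949 CPM in reC3, -1.07), while SBPASE (AT3G55800), sedoheptulose bisphosphatase (3602 CPM in CAM against 2018 CPM in reC3, 0.84), and CP12-2 (AT3G62410), a regulator of PRK (895 CPM in CAM against 570.3 CPM in reC3, 0.65), rose.

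In photorespiration, which recovers the product of Rubisco's reaction with oxygen, 3 of 16 members rose (18.8%) and 4 fell (25%). These shares lay near the 22.7% and 21.3% of all genes. The median was 0.14, with 1 rising without CAM replicate 2 and 2 falling without CAM replicate 1. Leaving out reC3 replicate 3, the median was -0.054. The catalase CAT2 (AT4G35090), which removes hydrogen peroxide in peroxisomes, had 1781, 1753 and 1842 CPM in CAM leaves, against 3681, 4303 and 5409 CPM in reC3 leaves (log2 fold change -1.32 ± 0.29 SE, edgeR adjusted p = 0.000762), and CAT3 (AT1G20620) fell as well (855 CPM in CAM against 1928 CPM in reC3, -1.17). The mitochondrial serine hydroxymethyltransferase SHM1 (AT4G37930) had 8509, 10413 and 8019.5 CPM in CAM leaves, against 4788, 4789.6 and 4116 CPM in reC3 leaves (0.98 ± 0.22). HPR1 (AT1G68010), hydroxypyruvate reductase, was called at 0.72 and was not called without CAM replicate 2 (0.54, edgeR adjusted p = 0.0535). Of 11 genes of nitrogen assimilation 2 rose and 3 fell (median 0.09), with 1 rising without any 1 of CAM replicates 1 and 2 and reC3 replicates 1 and 2, and a median of -0.15 without reC3 replicate 3. The nitrate transporter NRT1.5 (AT1G32450) had 278, 282 and 237 CPM in CAM leaves, against 4.90, 13.8 and 25.9 CPM in reC3 leaves (log2 fold change 4.13 ± 0.61 SE, edgeR adjusted p = 2.08e-05, and 4.81 without reC3 replicate 3), and NRT1.1 (AT1G12110) fell (27.0 CPM in CAM against 60.3 CPM in reC3, -1.16). Nitrate reductase, NIA1 (AT1G77760), had 26.3, 6.42 and 42.0 CPM in CAM leaves, against 609, 278 and 188 CPM in reC3 leaves (-3.85 ± 1.04, and -4.47 without CAM replicate 3 and -3.23 without reC3 replicate 1). CAM replicate 2 was the lowest of the 6 libraries. NIA2 (AT1G37130), its near copy, showed the same pattern (-3.84, and -4.47 without CAM replicate 3 and -3.26 without reC3 replicate 1).

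Genes of senescence and chlorophyll breakdown rose in 6 of 13 cases and fell in 3 (median 0.34), the same counts as without reC3 replicate 3. Without CAM replicate 2, 5 rose, and without CAM replicate 1, 2 fell. The senescence factor NAP (AT1G69490), of the NAC family, had 239, 277 and 192 CPM in CAM leaves, against 12.5, 18.3 and 62.5 CPM in reC3 leaves (log2 fold change 2.91 ± 0.62 SE, edgeR adjusted p = 0.000822, and 3.93 without reC3 replicate 3). SAG29 (AT5G13170), a sugar transporter that rises in ageing leaves, was at 86.5 CPM in CAM against 21.0 CPM in reC3 (2.04), and SEN1 (AT4G35770) at 67.7 CPM in CAM against 12.8 CPM in reC3 (2.41), both with closely grouped replicates. SGRL (AT1G44000), a STAY-GREEN-like protein, had 6.82, 15.8 and 6.12 CPM in CAM leaves, against 106, 72.8 and 24.4 CPM in reC3 leaves and fell (-2.80 ± 0.43). PPH (AT5G13800), pheophytinase, was higher in CAM at MD (288 CPM in CAM against 111 CPM in reC3, 1.38) and lower at ED and MN (-1.46 at ED, -1.98 at MN and -0.068 at EN), a midday excess of 2.55 ± 0.38 (edgeR adjusted p = 8.26e-05). In autophagy, which recycles cell content, 6 of 11 members rose and 0 fell (median 0.49). The membrane-anchored ATG8 proteins moved by similar amounts. ATG8F (AT4G16520) had 171, 159 and 150.3 CPM in CAM leaves, against 74.2, 71.1 and 93.9 CPM in reC3 leaves (log2 fold change 1.004 ± 0.21 SE, edgeR adjusted p = 0.000628), ATG8D (AT2G05630) rose by 1.0002 and ATG8C (AT1G62040) by 0.99, and the cargo receptor NBR1 (AT4G24690) by 0.49. Close ATG8 paralogs may share reads.

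Among clock genes 9 of 24 rose and 1 fell (median 0.48, and 0.44 with 1 member left out that had 3 counts or fewer in both groups). Without reC3 replicate 3, 11 rose and 1 fell. TOC1 (AT5G61380), of the evening loop, had 8.58, 8.62 and 11.3 CPM in CAM leaves, against 4.35, 3.30 and 3.57 CPM in reC3 leaves (log2 fold change 1.35 ± 0.17 SE, edgeR adjusted p = 1.25e-06). The activators RVE8 (AT3G09600, 27.0 CPM in CAM against 10.5 CPM in reC3, 1.35) and RVE6 (AT5G52660, 67.1 CPM in CAM against 28.9 CPM in reC3, 1.22), the coactivator LNK1 (AT5G64170, 226 CPM in CAM against 82.0 CPM in reC3, 1.46) and the F-box photoreceptor ZTL (AT5G57360, 72.4 CPM in CAM against 43.6 CPM in reC3, 0.73) rose without overlap. RVE3 (AT1G01520, 1.51) and ELF3 (AT2G25930, 0.76) rose as well. The core morning genes LHY (AT1G01060, -0.21) and CCA1 (AT2G46830, -0.11) and GI (AT1G22770, 0.53) did not pass the test, and GI was called without reC3 replicate 3 (0.73, edgeR adjusted p = 0.0151). The evening-complex gene LUX (AT3G46640), named after its value was seen as the 1 member that fell, was below 3 CPM in every library (-1.61).

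Of 13 light signalling genes 7 rose and 2 fell (median 0.73), with 1 falling without CAM replicate 1, CAM replicate 3 or reC3 replicate 1. The blue-light receptors PHOT2 (AT5G58140) and PHOT1 (AT3G45780), which steer chloroplast movement and stomatal opening, moved in opposite directions. PHOT2 had 1763, 1577 and 1642 CPM in CAM leaves, against 663, 544 and 554 CPM in reC3 leaves (log2 fold change 1.5005 ± 0.19 SE, edgeR adjusted p = 1.89e-06). PHOT1 had 98.7, 116 and 79.3 CPM in CAM leaves, against 619.5, 303 and 202 CPM in reC3 leaves (log2 fold change -1.93 ± 0.34 SE, edgeR adjusted p = 0.0001). Neither overlapped between groups. The midday difference of PHOT2 exceeded the mean of the other times by 1.63 ± 0.22 (edgeR adjusted p = 2.57e-05). Phytochrome A, PHYA (AT1G09570), rose (207 CPM in CAM against 92.5 CPM in reC3, 1.16), and so did the light-response factor HYH (AT3G17609, 13.9 CPM in CAM against 3.897 CPM in reC3, 1.81).

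Stress genes did not move as a block. Of 22 heat shock genes and chaperones 6 rose (27.3%) and 5 fell (22.7%), near the 22.7% and 21.3% of all genes (median 0.24). In this list 3 fell without CAM replicate 3 or reC3 replicate 3, and the median was 0.41 without reC3 replicate 3. J8 (AT1G80920), a DnaJ-domain protein of the plastid in Arabidopsis, had 30.6, 19.7 and 29.0 CPM in CAM leaves, against 0.544, 0.300 and 0.510 CPM in reC3 leaves (log2 fold change 5.82 ± 0.40 SE, edgeR adjusted p = 4.32e-10). The plastid small heat shock protein HSP21 (AT4G27670, 22.2 CPM in CAM against 2.58 CPM in reC3, 3.11) and BAG6 (AT2G46240, 19.8 CPM in CAM against 2.16 CPM in reC3, 3.15) rose, and BAG7 (AT5G62390) fell (7.84 CPM in CAM against 39.5 CPM in reC3, -2.33), both of them cochaperones. Of 13 antioxidant genes 2 rose and 4 fell (median -0.29), with 1 rising without any 1 of CAM replicates 1 and 2 and reC3 replicates 2 and 3. Leaving out reC3 replicate 3, 1 rose and 5 fell (median -0.61). Glutathione reductase GR1 (AT3G24170) fell (86.6 CPM in CAM against 144 CPM in reC3, -0.73), and so did the ascorbate peroxidases APX1 (AT1G07890, -0.75) and APX2 (AT3G09640, -0.68), while the mitochondrial superoxide dismutase MSD1 (AT3G10920) rose (0.56). In the flavonoid pathway, which makes pigments and sunscreens, 5 of 16 fell and 0 rose (median -0.39; 5 fell and 1 rose without reC3 replicate 3, median -0.14). Chalcone synthase, CHS (AT5G13930), had 3.705, 8.93 and 6.29 CPM in CAM leaves, against 15.96, 73.4 and 325 CPM in reC3 leaves (log2 fold change -4.44 ± 0.83 SE, edgeR adjusted p = 0.000249, and -2.81 without reC3 replicate 3). Dihydroflavonol reductase, DFR (AT5G42800), had 0.195, 0.313 and 0.497 CPM in CAM leaves, against 3.08, 9.89 and 64.0 CPM in reC3 leaves (-6.19 ± 1.43, and -4.21 without reC3 replicate 3). In both, reC3 replicate 3 was by far the highest library. C4H (AT2G30490) fell (30.4 CPM in CAM against 94.3 CPM in reC3, -1.63), and so did CHI (AT3G55120, 5.01 CPM in CAM against 17.38 CPM in reC3, -1.77, and -2.37 without CAM replicate 2).

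Genes of growing cell walls fell together. Of 25 cell wall growth genes 19 fell and 0 rose, with and without reC3 replicate 3, where 21.3% of all genes fell (median -2.65, and -2.80 without it). The lower count was 17 without reC3 replicate 1 and 20 without CAM replicate 3. CESA5 (AT5G09870), a cellulose synthase of the primary wall, had 83.5, 92.0 and 77.8 CPM in CAM leaves, against 382, 379 and 361 CPM in reC3 leaves (log2 fold change -2.15 ± 0.20 SE, edgeR adjusted p = 2.15e-08). COB (AT5G60920), COBRA, which guides the direction of expansion, had 12.7, 13.5 and 17.9 CPM in CAM leaves, against 63.9, 68.4 and 72.8 CPM in reC3 leaves (log2 fold change -2.22 ± 0.16 SE, edgeR adjusted p = 1.12e-09). The arabinogalactan protein FLA2 (AT4G12730) had 2.53, 5.95 and 5.63 CPM in CAM leaves, against 113, 129.6 and 95.8 CPM in reC3 leaves (-4.55 ± 0.44). The endoglucanase GH9B8 (AT2G32990) had 0.195, 0.157 and 0.993 CPM in CAM leaves, against 44.6, 55.0 and 44.0 CPM in reC3 leaves (-6.66 ± 0.74, and -7.97 without CAM replicate 3). The groups were separated in all 4, and the reC3 libraries lay close together.

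Germin-like proteins, of the cupin superfamily and located in the wall, fell in all 6 tested cases, where 21.3% of all genes fell. The list was chosen with earlier results of these data known, so this count describes its members and is not a test of the family. Their median was -8.20, or -6.72 with the 1 member without a count in CAM set to its bound. GER3 (AT5G20630) had 2.14, 2.04 and 2.65 CPM in CAM leaves, against 2322, 1657 and 437 CPM in reC3 leaves (log2 fold change -9.32 ± 1.29 SE, edgeR adjusted p = 1.09e-05), and GER1 (AT1G72610) had 0.780, 1.097 and 1.32 CPM in CAM leaves, against 822, 569.7 and 153 CPM in reC3 leaves (-8.87 ± 1.302). GLP10 (AT3G62020) had 0 counts in CAM and 209 in reC3, at least 61.1-fold lower. GL22 (AT1G02335) had 1 count in CAM and 279 in reC3, lower by a ratio of 245 (95% counting interval 43.5 to 9693). GLP5 (AT1G09560) had 0.780, 0.783 and 1.32 CPM in CAM leaves, against 24.1, 39.1 and 97.1 CPM in reC3 leaves (-5.77 ± 0.59, and -5.01 without reC3 replicate 3). In GER3 and GER1 reC3 replicate 3 was the lowest of its group, and in GLP5 the highest.

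Of families picked by words in their descriptions, GDSL lipases, pectin genes, peroxidases and tubulins had more members lower than higher, where 22.7% of all tested genes were higher and 21.3% lower. Of 39 genes described as GDSL lipases 29 fell and 2 rose (1 rose without any 1 library except reC3 replicate 1), and of 68 with pectin in the description 42 fell and 6 rose. Of 54 peroxidases 34 fell and 9 rose (5 without reC3 replicate 3), and of 20 tubulins 11 fell and 3 rose. The peroxidase AT4G21960 had 12.5, 6.58 and 16.4 CPM in CAM leaves, against 1973, 1535 and 1118 CPM in reC3 leaves (-7.03 ± 0.37), and AT5G05340 was at 6.76 CPM in CAM against 75.2 CPM in reC3 (-3.47). The GDSL lipase AT5G22810 was at 2.61 CPM in CAM against 37.6 CPM in reC3 (-3.83), and the pectin lyase-like AT3G06770 at 0.654 CPM in CAM against 14.7 CPM in reC3 (-4.40). Beta-tubulin TUB8 (AT5G23860) had 94.0, 85.4 and 113 CPM in CAM leaves, against 642, 671 and 517 CPM in reC3 leaves (-2.65 ± 0.20), and TUB2 (AT5G62690) was at 253 CPM in CAM against 1273 CPM in reC3 (-2.33).

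Markers of dividing cells fell in all 13 tested cases, with and without reC3 replicate 3, and in 11 without reC3 replicate 2. They summed to 52.5 to 60.3 CPM in the CAM libraries and 111 to 457 CPM in the reC3 libraries. TSO2 (AT3G27060), a subunit of ribonucleotide reductase, had 2.92, 1.25 and 0.993 CPM in CAM leaves, against 49.0, 44.6 and 14.8 CPM in reC3 leaves (log2 fold change -4.41 ± 0.53 SE, edgeR adjusted p = 1.37e-06). Of the helicase that starts DNA replication, MCM4 (AT2G16440) had 0.390, 0.783 and 1.16 CPM in CAM leaves, against 42.1, 29.95 and 7.02 CPM in reC3 leaves (-5.01 ± 0.69), MCM6 (AT5G44635) was at 0.225 CPM in CAM against 22.3 CPM in reC3 (-6.49, and -5.90 without reC3 replicate 1) and MCM7 (AT4G02060) at 0.628 CPM in CAM against 22.1 CPM in reC3 (-5.09, and -4.48 without reC3 replicate 1). The median of the list was -4.41. reC3 replicate 3 was the lowest of its group in these genes and remained above every CAM library. Cell wall growth genes summed to 481 to 567 CPM in the CAM libraries and 1499.7 to 2403 CPM in the reC3 libraries, and germin-like genes to 4.48 to 5.63 CPM in the CAM libraries and 774 to 3194 CPM in the reC3 libraries. The part of dividing cells in the falls of wall, tubulin and germin-like genes was not tested.

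The cuticle that seals the leaf surface changed in both directions. Of 23 wax and cutin genes 6 rose and 14 fell, as without reC3 replicate 3 (median -1.004). Without reC3 replicate 2, 4 rose. The cutin regulator SHN1 (AT1G15360) had 3.51, 3.92 and 2.65 CPM in CAM leaves, against 31.9, 28.5 and 27.9 CPM in reC3 leaves (log2 fold change -3.12 ± 0.24 SE, edgeR adjusted p = 2.32e-09). DCR (AT5G23940), an acyltransferase of cutin, had 0.585, 2.19 and 1.49 CPM in CAM leaves, against 167, 122 and 92.5 CPM in reC3 leaves (log2 fold change -6.42 ± 0.56 SE, edgeR adjusted p = 2.78e-08), and LACS2 (AT1G49430), which activates fatty acids for cutin, was at 19.3 CPM in CAM against 96.1 CPM in reC3 (-2.31). The elongase KCS1 (AT1G01120), which makes very long fatty acids for wax, went the other way, with 146, 166 and 185 CPM in CAM leaves, against 34.3, 31.0 and 29.5 CPM in reC3 leaves (log2 fold change 2.39 ± 0.21 SE, edgeR adjusted p = 1.41e-08). All 4 were separated between the groups. Of 5 epidermis markers, 3 fell, LACS2 among them, and the homeodomain factors ANL2 (AT4G00730, 33.5 CPM in CAM against 59.6 CPM in reC3, -0.83) and GL2 (AT1G79840, 28.7 CPM in CAM against 55.7 CPM in reC3, -0.96). The epidermis list summed to 271 to 301 CPM in the CAM libraries and 425 to 443 CPM in the reC3 libraries, and its part in the cutin falls was not tested. The plot of called members by list sets each list beside the shares over all genes.

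Guard cell markers fell in 6 of 9 cases and rose in 2 (median -1.22), with a summed 50.8 to 57.6 CPM in the CAM libraries and 78.9 to 84.0 CPM in the reC3 libraries. The anion channel ALMT12 (AT4G17970) of closing stomata had 0.975, 1.72 and 1.32 CPM in CAM leaves, against 8.89, 10.3 and 8.17 CPM in reC3 leaves (log2 fold change -2.73 ± 0.34 SE, edgeR adjusted p = 1.31e-06), the guard cell factor MYB60 (AT1G08810) was at 2.28 CPM in CAM against 7.69 CPM in reC3 (-1.73) and FAMA (AT3G24140) at 4.33 CPM in CAM against 14.2 CPM in reC3 (-1.71). The outward potassium channel GORK (AT5G37500), which releases potassium as stomata close, rose (12.6 CPM in CAM against 3.08 CPM in reC3, 2.05). Vascular markers fell in 8 of 11 cases and rose in 2 (median -1.36, 1 rising without any 1 of CAM replicates 1 and 2 and reC3 replicates 1 and 2). The secondary-wall cellulose synthases IRX5 (AT5G44030, 40.2 CPM in CAM against 119 CPM in reC3, -1.56) and IRX3 (AT5G17420, 89.8 CPM in CAM against 231 CPM in reC3, -1.36) fell, and the laccase LAC4 (AT2G38080), of lignin, had 1 count in CAM and 201 in reC3, lower by a ratio of 176 (95% counting interval 31.3 to 6993). SWEET11, counted here as well, rose. The vascular list summed to 803 to 925 CPM in the CAM libraries and 836 to 1613 CPM in the reC3 libraries. Of the 5 mesophyll markers 1 fell and 0 rose, and 2 fell without reC3 replicate 3.

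**Figure D3:**
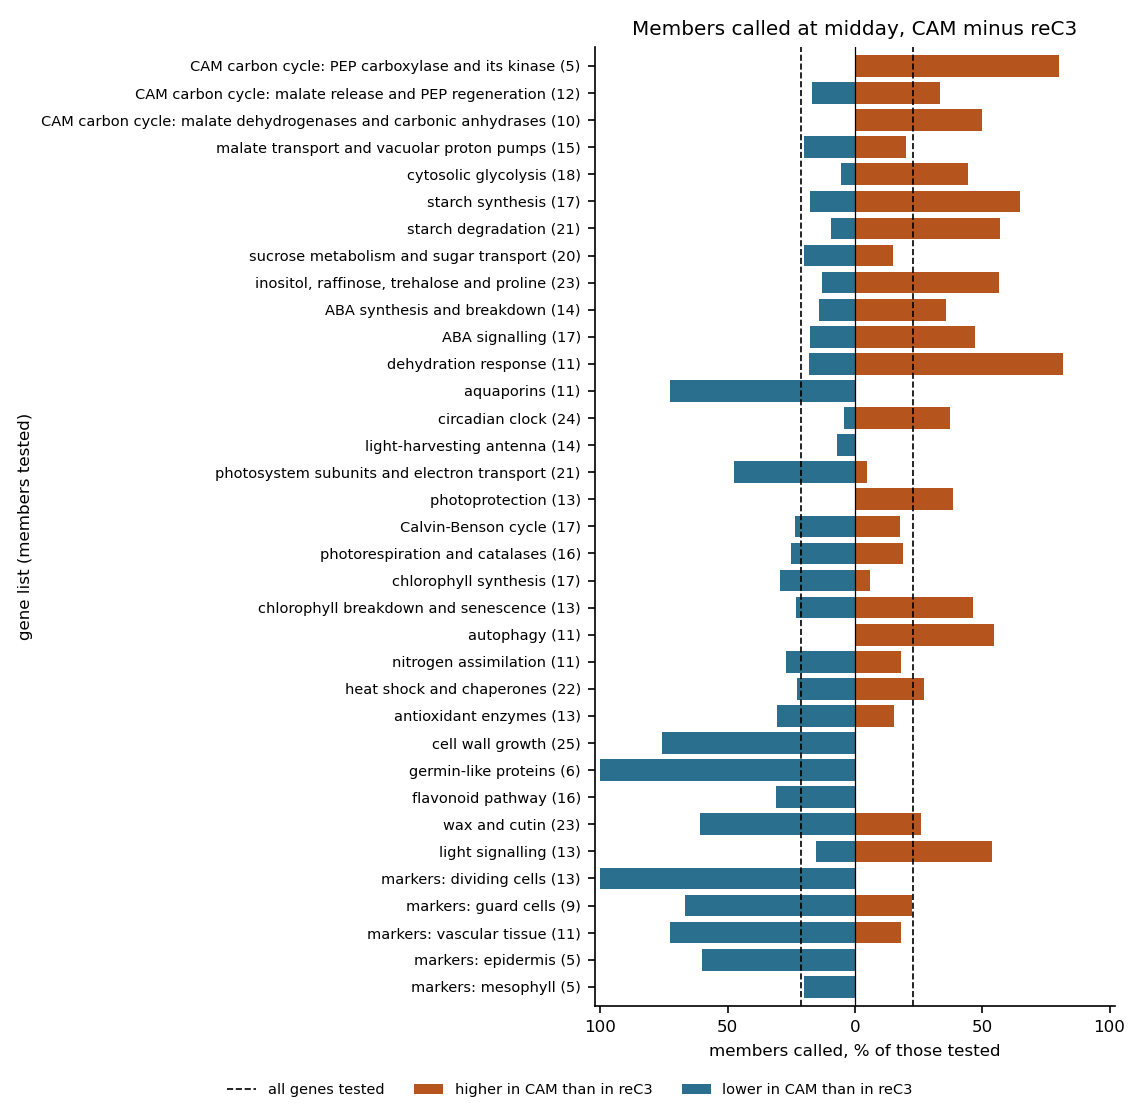
Share of the tested members of each gene list that passed the test at midday, in percent, higher in CAM to the right and lower in CAM to the left, with the number of members tested in parentheses. Dashed lines mark the shares over all 14065 genes, 22.7% higher and 21.3% lower.

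The largest changes of single genes spanned several functions. Among the 15 largest rises at 10 CPM or more were EDL3, ELIP1, the 3 inositol oxygenases and J8, described above. AT1G21460, of the MtN3 family of sugar transporters, had 119, 103 and 105 CPM in CAM leaves, against 4.54, 3.59 and 3.44 CPM in reC3 leaves (log2 fold change 4.83 ± 0.23 SE, edgeR adjusted p = 7.82e-12). AT4G19390, of a family without a described function, had 1544, 1262 and 1395 CPM in CAM leaves, against 11.97, 34.9 and 70.8 CPM in reC3 leaves (5.15 ± 0.89, and 5.89 without reC3 replicate 3). AT1G52720, without a description, was at 177 CPM in CAM against 3.47 CPM in reC3 (5.61), the zinc-binding PLATZ factor AT1G21000 at 21.0 CPM in CAM against 0.675 CPM in reC3 (4.97) and AT3G27250 at 97.2 CPM in CAM against 3.17 CPM in reC3 (4.91). AT2G38905, described as responsive to low temperature and salt (4.80), and the carrier-like AT5G19640 (4.78) rose too. BCAT-1 (AT1G10060), a branched-chain amino acid transaminase, had 51.7, 8.93 and 44.2 CPM in CAM leaves, against 1.09, 1.198 and 0.893 CPM in reC3 leaves (5.02 ± 0.56), and the beta-galactosidase BGAL2 (AT3G52840) had 328, 38.7 and 224 CPM in CAM leaves, against 10.7, 6.74 and 5.10 CPM in reC3 leaves (4.73 ± 0.70, and 4.14 without CAM replicate 1). In both, CAM replicate 2 was several-fold below the other CAM libraries and above all reC3 libraries.

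Among the 15 largest falls were GER3, GER1, GLP10, GL22 and LAC4, described above. The ribonuclease AT1G14210 had 0 counts in CAM and 421 in reC3, at least 123-fold lower. The pectate lyase AT1G67750 had 1 count in CAM and 296 in reC3, lower by a ratio of 259 (95% counting interval 46.2 to 10281), and ATGA2OX1 (AT1G78440), which inactivates gibberellins, fell and had 2 counts in CAM and 444 in reC3. ATGA2OX1 was at 0.390, 0 and 0 CPM in CAM leaves, against 1.63, 23.1 and 35.9 CPM in reC3 leaves, with reC3 replicate 1 far below reC3 replicates 2 and 3. The GDSL lipases AT4G28780 (-7.98, and -9.21 without CAM replicate 1 and -7.35 without CAM replicate 2), LTL1 (AT3G04290, -7.41) and AT5G33370 (-7.19), the endoglucanase GH9C2 (AT1G64390, -7.17, and -7.96 without CAM replicate 3) and the gibberellin-regulated AT3G10185 (-7.37, and -6.56 without reC3 replicate 1) were all below 2 CPM in CAM. AT1G27040, a carrier of the major facilitator superfamily, fell (-7.28, and -8.47 without CAM replicate 2). The cupin AT5G38910 had 1.56, 1.57 and 1.16 CPM in CAM leaves, against 24.7, 67.7 and 575 CPM in reC3 leaves (-7.27 ± 0.96, and -5.01 without reC3 replicate 3). Its reC3 replicate 3 stood far above replicates 1 and 2, which were still above every CAM library. The plot of the 15 largest differences in each direction gives all of these genes by library.

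**Figure D4:**
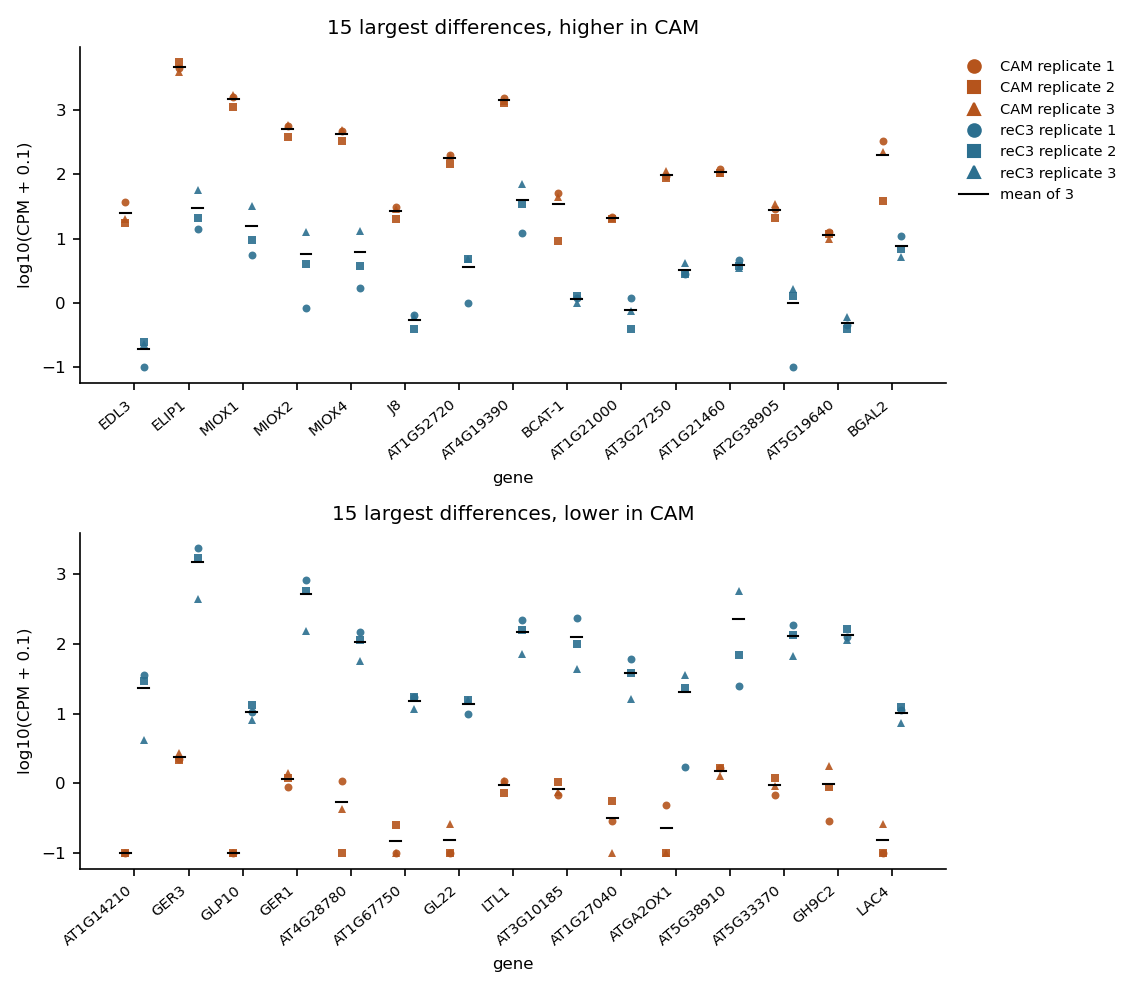
Levels of the 15 genes with the largest rises and the 15 with the largest falls at midday, as log10(CPM + 0.1) per library, CAM left of reC3 for each gene, with a line at the log10 of the mean CPM plus 0.1. Points at -1 are libraries without a count. Genes were picked for not overlapping between the groups, so the separation follows from the choice.

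Whether a midday difference was particular to midday was tested against the mean of the other times and against MN alone. The midday difference differed from the mean of the others for 3161 genes (22.5%), 1855 with a larger value (13.2%) and 1306 with a smaller one (9.29%), and from MN for 3139 (22.3%), 1707 larger (12.1%) and 1432 smaller (10.2%). Without reC3 MD replicate 3 the counts were 3036 and 3183. The dynein light chain AT4G27360 had 723, 769.5 and 741 CPM in CAM leaves, against 42.8, 72.9 and 69.7 CPM in reC3 leaves (log2 fold change 3.59 ± 0.24 SE, edgeR adjusted p = 3.65e-10). At the other times its log2 fold changes were 1.76 at ED, -0.21 at MN and -0.33 at EN, a midday excess of 3.18 ± 0.26 (edgeR adjusted p = 1.56e-07). AT1G21460 was higher in CAM at all times and most so at midday (2.82 at ED, 1.51 at MN and 1.21 at EN, an excess of 2.98 ± 0.25, edgeR adjusted p = 1.96e-07). Thioredoxin TRX3 (AT5G42980), which reduces protein disulfides, had 81.7, 105 and 93.7 CPM in CAM leaves, against 36.5, 57.5 and 51.3 CPM in reC3 leaves and was lower in CAM at the other times (-1.67 at ED, -2.24 at MN and -2.53 at EN), an excess of 3.10 ± 0.27 (edgeR adjusted p = 2.00e-07).

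Further genes of this kind were the serine hydroxymethyltransferase SHM3 (AT4G32520, 2.29 at MD, an excess of 2.50 ± 0.23), KCS1 (an excess of 2.62 ± 0.24), the chromatin remodelling gene CHR38 (AT3G42670, 0.92 at MD, an excess of 1.96 ± 0.18) and AT4G18810 (1.36 at MD, an excess of 1.82 ± 0.18). The acyltransferase GPAT2 (AT1G02390) did not pass the test at MD (0.44) and was lower at the other times (-2.91 at ED, -1.47 at MN and -2.08 at EN), an excess of 2.59 ± 0.25. In the opposite direction, the cytochrome P450 CYP78A10 (AT1G74110) had 0.390, 1.097 and 0.662 CPM in CAM leaves, against 26.3, 34.0 and 27.7 CPM in reC3 leaves (-5.28). Its log2 fold changes were -2.24 at ED, 0.022 at MN and -0.43 at EN, which leaves the midday difference -4.40 ± 0.35 from their mean (edgeR adjusted p = 1.37e-07). AT1G56230 (-3.48 at MD) lay -3.80 ± 0.38 from it, the peroxidase AT4G21960 -3.71 ± 0.35, the phosphatase-related AT1G17710 -2.24 ± 0.19 and the fucosyltransferase-like AT3G02250 -1.88 ± 0.19. COBL1 (AT3G02210), a relative of COBRA (-1.65 ± 0.18), the ubiquitin ligase PUB9 (AT3G07360, -1.74 ± 0.18) and NHO1 (AT1G80460), glycerol kinase (-1.58 ± 0.15), had smaller shifts. Against MN alone, AT4G27360 (3.799 ± 0.32), AT1G21460 (3.32 ± 0.29), SHM3 (3.16 ± 0.28) and the chaperone partner HIP1 (AT4G22670, 2.11 ± 0.20) led the larger differences, and CYP78A10 (-5.30 ± 0.41), AT1G56230 (-4.47 ± 0.43), AT1G17710 (-2.98 ± 0.24) and NHO1 (-1.85 ± 0.18) the smaller ones, each with an edgeR adjusted p of 1.17e-06 or less. The plot of log2 fold changes over the day follows the leading genes through the times.

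**Figure D5:**
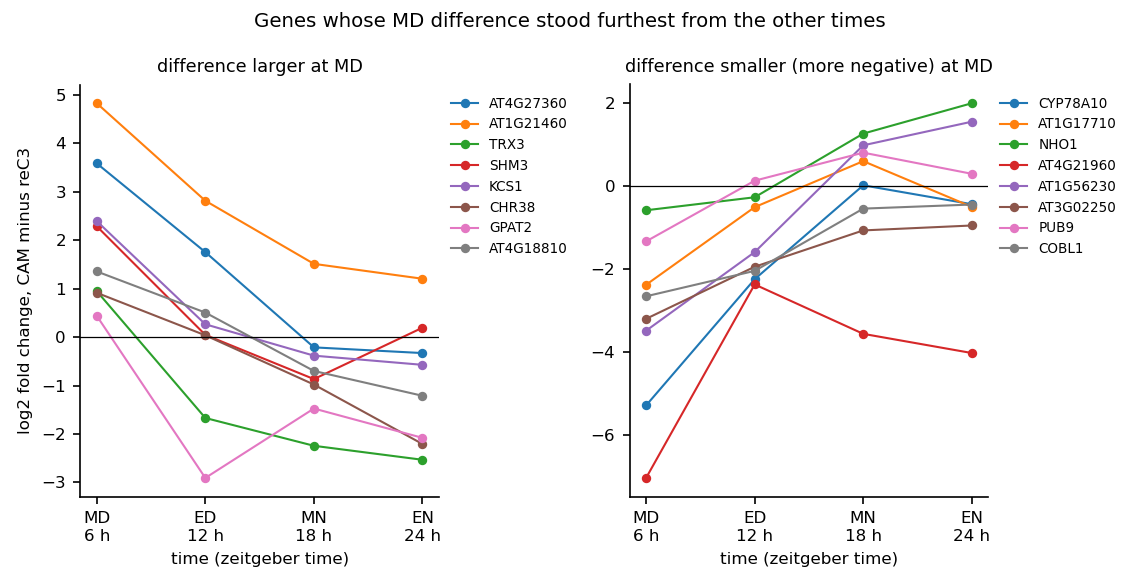
Log2 fold change of CAM over reC3 at each time of day for the 8 genes with the smallest p for a larger difference at midday (left) and the 8 for a smaller one (right), with lines joining the times of 1 gene. AT1G21460 is above 0 at all times and highest at MD, and AT4G21960 is below 0 at all times and lowest at MD.

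Further families were picked by words in their descriptions, and their counts stand beside the 22.7% of all tested genes that were higher and the 21.3% that were lower. Of 193 pentatricopeptide repeat proteins, which process organelle RNA, 55 rose and 2 fell, for example emb1417 (142 CPM in CAM against 62.9 CPM in reC3, 1.18) and AT2G30100 (42.6 CPM in CAM against 13.0 CPM in reC3, 1.71). Leaving out reC3 replicate 3, 45 rose and 2 fell, and 39 rose without CAM replicate 2. Of 125 leucine-rich repeat genes, many of them receptor kinases, 13 rose and 72 fell, for example AT3G03770 (-1.86) and AT2G16250 (-2.83). Of 278 ribosomal protein genes 28 rose (10.1%) and 3 fell, with 16 rising without reC3 replicate 3 and 18 without CAM replicate 3, and 0 falling without CAM replicate 1, CAM replicate 2 or reC3 replicate 2. Of 25 genes with ethylene in the description 8 rose and 3 fell, among them the ethylene receptors ETR2 (AT3G23150), with 97.9, 107 and 89.2 CPM in CAM leaves, against 16.1, 17.37 and 23.3 CPM in reC3 leaves (2.36 ± 0.27), and ERS2 (AT1G04310, 29.4 CPM in CAM against 4.92 CPM in reC3, 2.56). Of 72 with auxin in it 9 rose and 25 fell, and of 273 with zinc finger 70 rose (25.6%) and 52 fell (19%), shares near those of all tested genes. The rest of the 18 families counted follow. Of 31 proteasome genes 3 rose and 1 fell, of 30 WRKY genes 3 and 4, and of 29 NAC domain genes 5 and 6. Of 103 cytochrome P450 genes 11 rose and 31 fell, of 27 glutathione S-transferases 6 and 10, and of 58 with histone 11 and 8. Of 68 with heat shock 10 rose and 11 fell, and of 51 with F-box 6 and 11. With 1 library left out, up to 10 NAC domain genes rose and up to 8 WRKY genes fell.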

How the data were processed

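Polyadenylated RNA of mature leaves was sequenced as 150 bp single-end reads with a kit that does not mark strand, per the labels' protocols. The values are raw read counts per Arabidopsis gene identifier in 1 deposited table, per the file headers. The submitters' processing notes name CASAVA 1.8.2 and the TAIR10 annotation, while no aligner or counter is given in the sources used here. How reads of close paralogs were shared out is therefore not known. A further 40 value columns of the table belong to no sample used here and were left out.

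Genes passing edgeR's filter on low counts (14065 of 22079) were fitted in all 24 libraries with 1 mean per group of mode and time, so that 8 groups share 1 estimate of spread (R 4.3.3, edgeR 4.0.16, TMM scaling, robust quasi-likelihood test, 16 residual degrees of freedom, biological coefficient of variation 0.196). The midday contrast is CAM minus reC3, and its difference from MN, or from the mean of ED, MN and EN, was tested in the same fit. P-values were adjusted by Benjamini-Hochberg over all genes tested, with a threshold of 0.05, and the standard error of a fold change is its size divided by the square root of F. CPM use TMM-scaled library sizes. A fold against a group at 0 counts was set against a floor of 3 counts over the group, and ratios with 1 to 3 counts have exact 95% intervals, which cover counting error only. The procedure was tested on simulated data.

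Genes picked for naming were the 15 largest called differences in each direction at 10 CPM or more in the higher group without overlap. They also held the 4 members with the smallest p in each list, and the leading 8 (other times) and 4 (MN) genes of each difference between times. In the lists for the CAM cycle, malate transport, glycolysis, starch, solutes, ABA and clock, any member at 10 CPM or more was picked too. This gave 287 genes, 217 called at midday and 70 not called. Only part of those 70 is named in the text, so members that did not pass the test are under-represented. The members and lists were chosen with earlier results of these data known. Examples from families picked by description, and PPC4, PYL2, LUX and PETC, were chosen after their values were seen, and PPH for its difference between times. Alternatives were DESeq2 1.42.0, other scalings, no filter, other sets of libraries, a replicate block, a stricter threshold and leaving out each midday library.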

Additional observations from a re-analysis of the deposited data

Results flagged for a closer look

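The results given here differed between times of day by a test of the difference itself, an interaction term of edgeR's quasi-likelihood fit. They are values on the log2 scale of the midday difference (CAM minus reC3) minus its mean at the end of the day, the middle of the night and the end of the night. Such a difference passed the test for 3161 genes, and against the middle of the night alone for 3139. Libraries of the end of the day and of the night's end came from another set than those of midday and midnight. Against the end of the day and the night's end, time of day and set of libraries cannot be told apart.

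In the CAM cycle the midday difference was larger by 1.71 for PPCK2 and 1.37 for PPCK1, the kinases of PEP carboxylase. Against the middle of the night alone neither kinase passed the test. PPCK1 was lower in CAM at the end of the day and higher at the other times, so its value does not mark midday alone. The midday difference was larger by 1.16 for NADP-ME2, 1.005 for NADP-ME4 and 1.04 for NADP-ME1, the malic enzymes, and by 1.68 for the malate dehydrogenase plMDH. In starch metabolism it was larger by 3.00 for SS1, 2.21 for APL2, 1.28 for ISA1 and 1.44 for SEX1. In glycolysis it was larger by 1.36 for iPGAM1 and 1.89 for GAPC1. The proline gene P5CS1 (2.57), the cyclic electron flow gene PGR5 (1.99), the photoreceptor PHOT2 (1.63) and the pheophytinase PPH (2.55) were larger as well. The difference was smaller at midday by -3.82 for the sucrose synthase SUS4 and by -1.84 for RCA.

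Over all genes, the leading larger values were 3.18 for AT4G27360, 2.98 for AT1G21460, 3.10 for TRX3, 2.50 for SHM3, 2.62 for KCS1, 1.96 for CHR38, 2.59 for GPAT2 and 1.82 for AT4G18810. The leading smaller values were -4.40 for CYP78A10, -2.24 for AT1G17710, -1.58 for NHO1, -3.71 for AT4G21960, -3.80 for AT1G56230, -1.88 for AT3G02250, -1.74 for PUB9 and -1.65 for COBL1. Against the middle of the night alone, values were 3.799 for AT4G27360, 3.32 for AT1G21460, 3.16 for SHM3 and 2.11 for HIP1, and -5.30 for CYP78A10, -2.98 for AT1G17710, -1.85 for NHO1 and -4.47 for AT1G56230. The genes named here kept an edgeR adjusted p under 0.05 in each of the 6 fits that left out 1 midday library, and the highest was 0.0498, for PPCK1. The leading genes were picked for the smallest p in these same tests, and the others had passed with all libraries. The fits share most libraries, so a kept call describes steadiness to 1 library and is not separate support.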

How the results depend on the processing

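The number of genes called at midday, 6190, was 6099 with DESeq2, 6023 with RLE scaling, 5515 with library totals alone, 6163 without a filter on low counts, 5775 from the 6 midday libraries alone, 6690 from the 12 midday and midnight libraries, 4475 at an adjusted p under 0.01, and 5227 to 5849 with 1 library left out. The count of genes whose midday difference was smaller than the midnight one, 1432, fell to 922 with library totals alone, and the cause was not tested. Among the other counts over all genes or over all lists, none moved by over 1.5 times in these settings. Of 217 named genes called at midday, 203 kept their call in all 6 fits that left out 1 library, and 207 to 213 in each single fit. Only values that did not pass the test changed sign: with 1 library left out BASS2 lay between -0.031 (without reC3 replicate 3) and 0.42, and CCA1 between -0.31 and 0.082 (without CAM replicate 3).

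Replicate numbers were not used as pairs in the main fit. Deviations of same-numbered CAM and reC3 libraries had correlations of 0.016, -0.016 and -0.080, and no library correlated best with its own number. With 3 libraries per group these values show no sign of a pairing but cannot exclude one. With a replicate block 6199 genes were called in the fit of 24 libraries and 5169 in that of the 6 midday libraries, with 293 and 256 list members against 292 without the block, 215 and 196 of the named genes, and 3158 and 3194 genes for the differences from the other times and from midnight.

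With 3 libraries per group, 5716330 to 8145122 counts each and unknown sharing of reads between paralogs, values of genes below a few CPM and of single members of close families are the least certain. The replicates are called biological in the design text, without a statement on plants per library, so p-values measure the spread between libraries. That spread was estimated over all 24 libraries. At midday the chi-square per degree of freedom was 15.2 to 89.5 between reC3 libraries and 3.91 to 16.6 between CAM libraries. Standard errors may therefore be too small for genes that varied among the midday reC3 libraries. Leaving out reC3 replicate 3 moved the antenna falls to 3, against 1 with all libraries, and the photosystem falls to 15, against 10, and leaving out reC3 replicate 1 moved the photosystem falls to 6.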
